A study of Homo sapiens with 9 samples.

Results

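Co-depletion of SMG6 and XRN1 was set against depletion of XRN1 alone, so that the labelled treatments differ by the added siRNA against SMG6. The comparison took every locus of the deposited gene table whose mean over the 4 RNA-seq libraries reached 1 FPKM (fragments per kilobase, scaled to the mapped fragments of the library), which was 12164 of 22266 loci. A second deposited table, of spike-in normalised isoform signal, gave the isoforms of the same loci. The cells were HEK293 Flp-In T-Rex, a human embryonic kidney line, and every sample used here carried a beta-globin reporter with a premature stop at codon 39, expressed from the Flp-In locus. The groups were SMG6/XRN1 (siRNA against both), UPF1/XRN1 (siRNA against both), XRN1 (siRNA against XRN1 only) and a control that received siRNA against EGFP. RNA came from digitonin extracts, which hold the cytoplasm, and was selected for poly(A). Each group had 1 RNA-seq library from this 1 reporter line, so sizes of change are given with no p-value, and each describes a pair of libraries. The series had 9 samples, and its 4 libraries of RNA 5′ ends and 1 CAGE library were not analysed here.

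Nonsense-mediated decay (NMD) removes mRNAs on which the ribosome stops well upstream of the last exon junction. The helicase UPF1 marks such mRNAs, and SMG6, an endonuclease recruited by UPF1, cuts them near the stop codon. The 3′ piece of a cut mRNA is then degraded from its new 5′ end by XRN1, the main cytoplasmic 5′ exonuclease, which also degrades decapped mRNAs. Many splicing factor genes use the pathway on themselves by including a "poison" exon that carries a stop codon. Non-coding host genes of small nucleolar RNAs (snoRNAs) are spliced and exported like mRNAs, and their short open reading frames end early.

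Isoform signals of low loci lay on whole multiples of a fixed step per library, so signals were turned into estimated reads. These came to 34649855 reads in SMG6/XRN1, 35983475 in UPF1/XRN1, 32970743 in XRN1 and 31476528 in the control. Intervals printed beside ratios of reads and shares are at 95% and cover counting error only. Reads shared among isoforms are assigned by the authors' model, and the intervals do not cover that assignment. Of 10 genes listed for the HEK293 line, 8 passed the filter and NEFM and PAX2 did not. Those that passed included KRT8 (202 FPKM in SMG6/XRN1 against 205 in XRN1) and LIN28B (33.3 against 25.9). LIN28B was the only 1 of the 8 that stood higher in SMG6/XRN1 than in XRN1, and the other 7 did not. Of 20 markers of other cell types, 4 passed it: EPCAM, ACTA1, HBA1 and HBA2.

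The targeted mRNAs were examined first, and at the level of the gene they did not check the labels. SMG6 was at 7.66 FPKM in the library labelled SMG6/XRN1 and 5.97 in UPF1/XRN1, against 5.55 in XRN1 and 4.77 in the control. The reads of SMG6 in SMG6/XRN1 were 0.982 of those in XRN1 (0.883 to 1.09). XRN1 was at 10.1 FPKM in SMG6/XRN1 and 6.50 in UPF1/XRN1, against 7.31 in XRN1 and 7.80 in the control. UPF1 was at 11.4 FPKM in SMG6/XRN1 and 8.59 in UPF1/XRN1, against 11.6 in XRN1 and 6.71 in the control. The isoforms of SMG6, picked after their values were seen, differed in direction. The full-length SMG6 isoform ENST00000263073 had 342 estimated reads in SMG6/XRN1 and 458 in UPF1/XRN1, against 523 in XRN1 and 440 in the control. In the same locus the isoform ENST00000570756, annotated as a processed transcript, had 186 reads in SMG6/XRN1 against 20 in XRN1, and the coding isoform ENST00000575454 had 66 against 45. Picked likewise, the coding isoform ENST00000392981 of XRN1 had 402 reads in SMG6/XRN1, 465 in UPF1/XRN1 and 308 in XRN1, against 957 in the control. An assembled isoform of XRN1 went the other way, with 349, 420 and 169 reads against 60. The coding isoform ENST00000262803 of UPF1 had 252 reads in UPF1/XRN1, against 1006 in SMG6/XRN1, 869 in XRN1 and 588 in the control. An assembled isoform of UPF1 had 852 in UPF1/XRN1 against 614 in XRN1. The library names therefore stand for libraries so labelled, and each direction rests on the labels.

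The reporter gene HBB was at 355 FPKM in SMG6/XRN1 and 747 in UPF1/XRN1, against 257 in XRN1 and 139 in the control. Most of its reads lay on the coding isoform ENST00000335295, which had 3486 reads in SMG6/XRN1 and 8612 in UPF1/XRN1, against 1838 in XRN1 and 1292 in the control. A retained-intron isoform of HBB had 1074 reads in SMG6/XRN1 and 2493 in UPF1/XRN1, against 941 in XRN1 and 451 in the control. Both isoforms stood above XRN1 in both co-depletions and were lowest in the control. The retained-intron isoform was close between SMG6/XRN1 and XRN1. The log2 change of the locus, SMG6/XRN1 over XRN1, was 0.46 by FPKM and 0.79 by summed isoform signal. Both are under the 2-fold used here as a call.

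Of the 12164 loci, 166 (1.36%) rose by 2-fold or more in SMG6/XRN1 over XRN1, and 21 (0.173%) fell by as much. The log2 change, always taken as log2((SMG6/XRN1 FPKM + 1)/(XRN1 FPKM + 1)), had a median of 0.12, and 8215 of the 12164 loci (67.5%) lay above 0, which is the background for the counts above 0 given for gene lists. Set against that median, the counts were 111 higher and 31 lower, so the share of calls that were higher was 88.8% before centring and 78.2% after it. By isoform signal summed per locus, 3.49% of all loci rose and 0.263% fell, and 144 of the 166 rises and 16 of the 21 falls were also past 2-fold. The median log2 change of all loci by summed signal was 0.21. In bulk RNA, fewer cells of a type and less RNA per cell cannot be told apart.

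Pseudogenes and non-coding genes made up much of what rose. Of 9992 loci of protein-coding genes, 63 (0.631%) were at least 2-fold higher. Of 132 loci of transcribed unprocessed pseudogenes, which are spliced remnants of gene duplications, 21 were (15.9%, exact interval 10.1 to 23.3%). The shares were 6 of 41 for other unprocessed pseudogenes (14.6%), 9 of 198 for lincRNAs (4.55%), 6 of 74 for processed transcripts (8.11%) and 10 of 538 for antisense genes (1.86%). Processed pseudogenes, intronless copies of mRNAs, had 5 of 122 (4.10%). A locus took the GENCODE release 29 gene type that held most of its reads. Copies of a gene can share reads, and how reads were split among them was not tested.

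Non-coding snoRNA host genes were the gene group with the highest median. Of 22 listed, 16 passed the filter. Of these, 8 rose at least 2-fold (1.36% of all loci did), none fell by 2-fold, and 13 lay above 0. Their median log2 change was 0.90, where all loci had 0.12. By summed isoform signal it was 1.01, where all loci had 0.21. The title of the series names snoRNA host genes, so the direction of this list is not independent evidence.

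ZFAS1, host of box C/D snoRNAs, had 3336 FPKM in SMG6/XRN1 and 2290 in UPF1/XRN1, against 868 in XRN1 and 380 in the control. GAS5, a growth-arrest-associated host, had 1482 FPKM in SMG6/XRN1 and 1353 in UPF1/XRN1, against 412 in XRN1 and 176 in the control. SNHG12 had 445 FPKM in SMG6/XRN1 and 479 in UPF1/XRN1, against 129 in XRN1 and 37.2 in the control. In all 3 hosts the order was the same on the low side, with the control lowest, XRN1 above it and both co-depletions on top. Their log2 changes were 1.94 for ZFAS1, 1.85 for GAS5 and 1.78 for SNHG12, and their reads in SMG6/XRN1 were 4.26 times (4.17 to 4.35), 3.83 times (3.74 to 3.92) and 3.96 times (3.78 to 4.16) those in XRN1.

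EPB41L4A-AS1 followed with 136 FPKM in SMG6/XRN1 against 44.9 in XRN1 (log2 change 1.58), and SNHG6 with 755 against 259 (1.54). SNHG1, host of a cluster of box C/D snoRNAs, had 440 FPKM in SMG6/XRN1 and 792 in UPF1/XRN1, against 154 in XRN1 and 55.9 in the control. Its change was 1.51, and UPF1/XRN1 was the highest of the 4 libraries. C17orf76-AS1 had 1544 FPKM in SMG6/XRN1 against 713 in XRN1 (1.11), and SNHG11 had 9.07 against 3.89 (1.04). The calls of these 2 genes are lost on centring, where they had 1.0 (just under 2-fold) and 0.93.

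The other 8 hosts did not pass 2-fold. SNHG7 had 204 FPKM in SMG6/XRN1 and 252 in UPF1/XRN1, against 119 in XRN1 and 37.0 in the control (log2 change 0.77). SNHG5 had 1191 FPKM in SMG6/XRN1 and 1111 in UPF1/XRN1, against 835 in XRN1 and 379 in the control (0.51). SNHG15 had 60.6 FPKM in SMG6/XRN1 and 91.2 in UPF1/XRN1, against 45.5 in XRN1 and 12.4 in the control (0.41). For these 3 hosts the gap between XRN1 and the control was wider on the log2 scale than that between SMG6/XRN1 and XRN1. SNHG10 (0.43) had 41 reads in SMG6/XRN1 and 27 in XRN1, and SNHG9 (0.29) had 11 and 9. SNHG8 (-0.10), DANCR (-0.13) and SNHG16 (-0.31) stood lower in SMG6/XRN1 than in XRN1 by FPKM, with SNHG16 at 56.5 against 70.3 and DANCR at 24.8 against 27.3. By summed signal SNHG8 had 0.53, so its sign depends on the table.

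**Figure D1:**
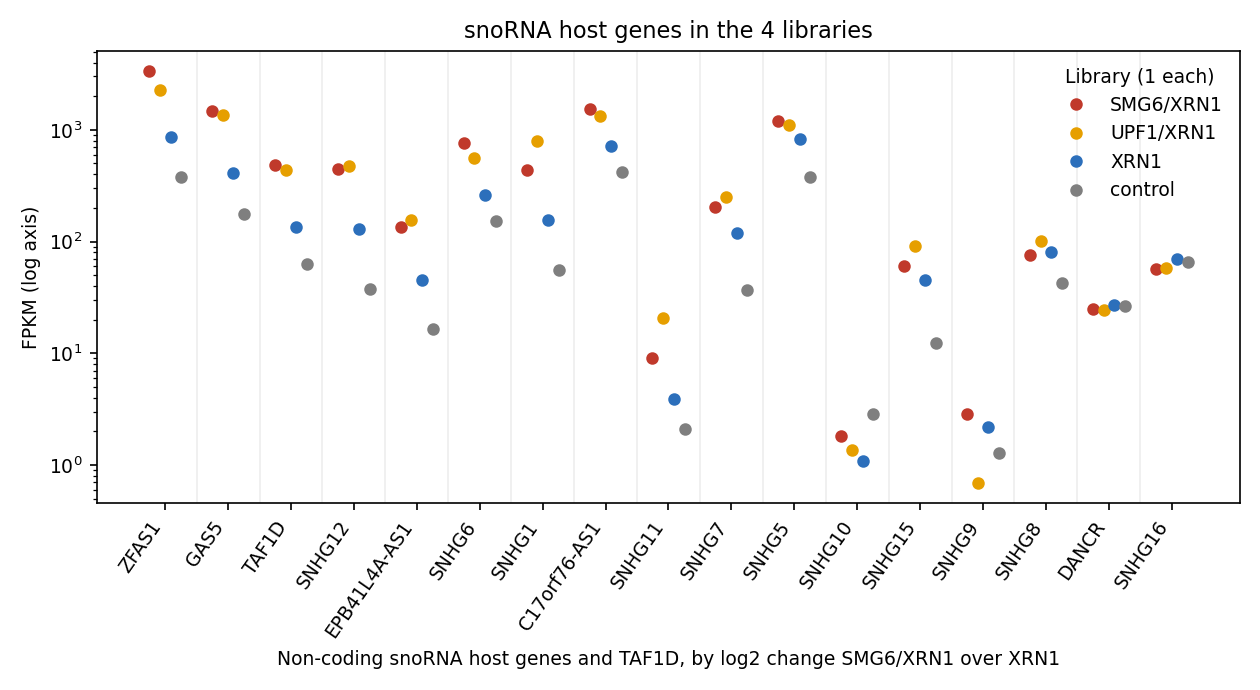
FPKM (log axis) of the 16 measured non-coding snoRNA hosts and of the protein-coding host TAF1D in the 4 libraries, 1 point per library, ordered by log2 change of SMG6/XRN1 over XRN1. ZFAS1 at the left stands at 3336 FPKM in SMG6/XRN1 against 868 in XRN1, while SNHG16 at the right stands at 56.5 against 70.3.

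Many snoRNA hosts start transcription at a C followed by a run of pyrimidines, the 5′ terminal oligopyrimidine (TOP) start that also marks ribosomal protein mRNAs. RefSeq promoters (GRCh38.p14) were found for 13 of the 16 hosts and searched, on the gene's strand only, for C at the annotated start base followed by C or T up to a run of at least 5. The run was present in 3 of the 13, ZFAS1, SNHG12 and SNHG5, and in 1429 of 35116 promoters of all genes (4.07%). Windows of 30 bases before the start and 30 from it are shown for these 3 and for TAF1D, whose run is as long as that of SNHG12. The last window is that of SNHG16, which did not pass 2-fold and has no run at the annotated start base. In SNHG16 a run of pyrimidines begins a few bases after that base, and it was not counted. Capitals mark the run from the start base.
ZFAS1, chr20:49278612-49278671, plus strand: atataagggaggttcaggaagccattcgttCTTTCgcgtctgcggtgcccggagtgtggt
SNHG12, chr1:28581844-28581903, minus strand: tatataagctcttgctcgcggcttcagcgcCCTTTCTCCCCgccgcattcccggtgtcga
SNHG5, chr6:85678704-85678763, minus strand: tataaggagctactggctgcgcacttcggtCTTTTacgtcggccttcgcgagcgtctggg
TAF1D, chr11:93741466-93741525, minus strand: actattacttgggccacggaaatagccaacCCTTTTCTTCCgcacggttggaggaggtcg
SNHG16, chr17:76557734-76557793, plus strand: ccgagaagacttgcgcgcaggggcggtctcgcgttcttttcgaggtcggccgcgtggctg
Hosts with the run ranged from 0.51 for SNHG5 to 1.94 for ZFAS1, and GAS5 (1.85) rose without it at its RefSeq start. The runs were 11 bases in SNHG12 and TAF1D and 5 in ZFAS1 and SNHG5.

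Protein-coding snoRNA hosts other than ribosomal protein genes did not move as a group. Of 30 measured, 2 rose (1.36% of all loci did), none fell, and the median was 0.06. TAF1D, a subunit of the RNA polymerase I selectivity factor, had 486 FPKM in SMG6/XRN1 and 434 in UPF1/XRN1, against 136 in XRN1 and 62.4 in the control. It rose by 1.83, the size of the leading non-coding hosts. Of its reads, 91.1% in SMG6/XRN1 and 91.6% in UPF1/XRN1 lay on isoforms annotated as NMD targets, against 80.6% in XRN1 and 80.4% in the control. The other rise, CHD8, was seen by FPKM only and is described with the loci whose tables part. NOP56, a core box C/D snoRNP protein, had 733 FPKM in SMG6/XRN1 against 1058 in XRN1 (-0.53).

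Genes of the decay machinery itself stayed within 2-fold. Of 12 measured NMD factors none passed it, and the median was 0.18, where all loci had 0.12. SMG9, which with SMG8 regulates the kinase SMG1, had 42.9 FPKM in SMG6/XRN1 against 29.9 in XRN1, a log2 change of 0.51. SMG6 (0.40), SMG5 (0.37), the scaffold UPF2 (0.36), the helicase DHX34 (0.21), UPF3A (0.15), UPF3B (0.14) and NBAS (0.12) lay above 0. UPF1 (-0.02), SMG1 (-0.05) and PNRC2 (-0.22), which links UPF1 to decapping, lay below it. Several of these mRNAs stood above the control in XRN1 already, such as SMG9 at 42.9 FPKM in SMG6/XRN1 and 29.9 in XRN1 against 14.7 in the control, and SMG1 at 13.3 and 13.8 against 5.4.

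The exon junction complex (12 genes, median 0.18), decapping factors (20 genes, 0.11) and deadenylases with the exosome (29 genes, 0.23) had no member past 2-fold. Of the last, 27 of 29 lay above 0 and 22 above the median of all loci. Their extremes were the complex's core subunit gene MAGOHB (0.76) and PNN (-0.13), EDC4 (0.46) and the scavenger decapping enzyme DCPS (-0.24), and the deadenylase subunit CNOT10 (0.73) and WDR61 (-0.09). MAGOHB had 153 FPKM in SMG6/XRN1 and 156 in UPF1/XRN1, against 89.8 in XRN1 and 73.6 in the control. Its reads on isoforms annotated as NMD targets were 3089 in SMG6/XRN1 against 1220 in XRN1, and those on its coding isoforms 1086 against 1069.

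**Figure D2:**
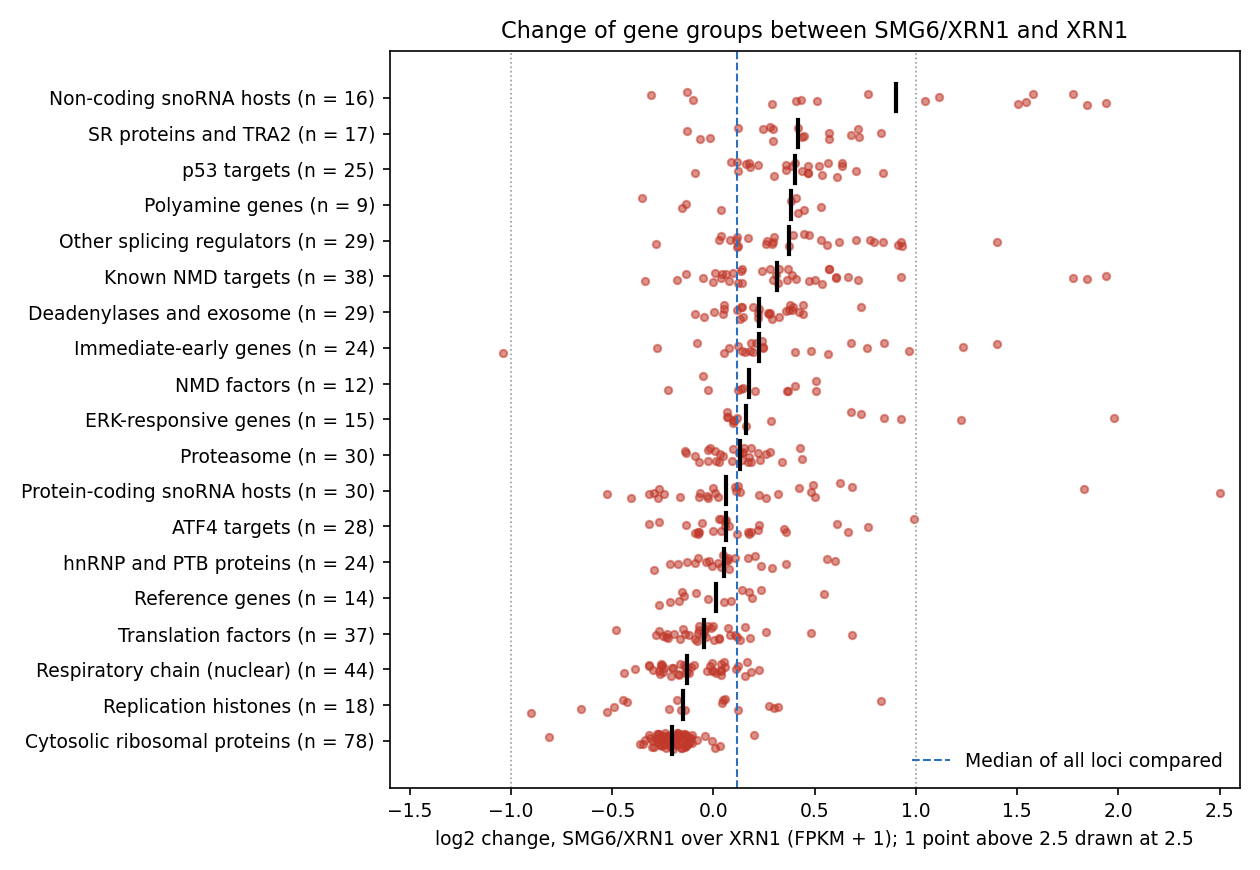
Log2 change of FPKM + 1, SMG6/XRN1 over XRN1, for the measured members of 19 gene lists, 1 point per gene with the list median as a bar, a dashed line at the median of all loci (0.12) and dotted lines at 2-fold. Non-coding snoRNA hosts have the highest median (0.90) and cytosolic ribosomal proteins the lowest of those plotted (-0.20), with CHD8 (5.26) drawn at 2.5.

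Splicing factor genes moved little as whole genes. Among 17 SR and TRA2 proteins, which bind exonic enhancers, none passed 2-fold, 14 lay above 0 and above the median of all loci, and the median was 0.42. The extremes were SRSF10 (204 FPKM in SMG6/XRN1 against 114 in XRN1, 0.83) and SRRM2 (-0.13). Among 29 other splicing regulators 1 rose (1.36% of all loci did), 28 lay above 0 and 24 above the median of all loci, with a median of 0.37. That gene was SFPQ, a paraspeckle and splicing protein, with 735 FPKM in SMG6/XRN1 and 550 in UPF1/XRN1, against 278 in XRN1 and 346 in the control (1.40). RBM3 had the lowest value (-0.28). Among 24 hnRNP and PTB proteins none passed, with a median of 0.05 and extremes of HNRNPH1 (0.60) and HNRNPA3 (-0.30). The 34 core spliceosome genes had a median of 0.09, between SNRPA (-0.36) and PRPF3 (0.52).

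Most reads of SFPQ lay on assembled isoforms that share a junction with a reference isoform without matching it. The largest of these had 26907 reads in SMG6/XRN1 and 24718 in UPF1/XRN1, against 10494 in XRN1 and 15648 in the control. Another had 18228 reads in SMG6/XRN1 and 13081 in UPF1/XRN1, against 5216 in XRN1 and 3191 in the control. The reference coding isoform ENST00000357214 had 5875 reads in SMG6/XRN1 and 6093 in UPF1/XRN1, against 3738 in XRN1 and 7800 in the control. The unmatched isoforms thus rose at least 2-fold over XRN1 while the reference isoform did not.

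At the level of isoforms the annotated type of a transcript set it apart. Of 46189 isoforms with a mean of at least 20 estimated reads, 9811 (21.2%) rose by 2-fold or more in SMG6/XRN1 over XRN1 and 3150 (6.82%) fell by as much, and the median change was 0.28 on the log2 scale. Among 32641 that matched a reference transcript, 93.7% had a type in GENCODE release 29. Of 2742 isoforms annotated as NMD targets, 1038 rose (37.9%, interval 36.0 to 39.7%) and 142 fell (5.18%), with a median of 0.65. Of 21554 protein-coding isoforms, 2981 rose (13.8%, interval 13.4 to 14.3%) and 1404 fell (6.51%), with a median of 0.19. The intervals treat isoforms as independent draws, which isoforms of a gene are not.

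Among the other types with at least 100 isoforms the shares ranged widely. Processed pseudogenes rose in 6.09% of 115 cases, under the protein-coding share. Retained-intron isoforms rose in 22.3% of 2337 cases, processed transcripts in 26.2% of 2539, lincRNAs in 27.8% of 378 and antisense transcripts in 14.2% of 718. Of the rarer types, transcribed unprocessed pseudogenes rose in 17 of 42 cases (40.5%, interval 25.6 to 56.7%). Assembled isoforms that only share a junction with a reference, 12858 in number, rose in 29.7% and fell in 9.01%, so they moved more often in both directions. Isoforms of intergenic loci rose in 16.3% of 374.

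Few reads alone put many isoforms past 2-fold, so types were compared within bins of reads. Among isoforms with a mean of 20 to 50 reads, 44.4% of NMD-type and 28.6% of protein-coding isoforms rose. With 100 to 300 reads the shares were 35.5% and 14.6%, and with 300 to 1000 reads 28.9% and 6.51%. With 1000 reads and over, 41 of 182 NMD-type isoforms rose (22.5%) and none fell, while 56 of 4318 protein-coding isoforms rose (1.30%) and 12 fell. The share of risers thus fell with depth in both types, and the gap between the types remained in every bin.

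**Figure D3:**
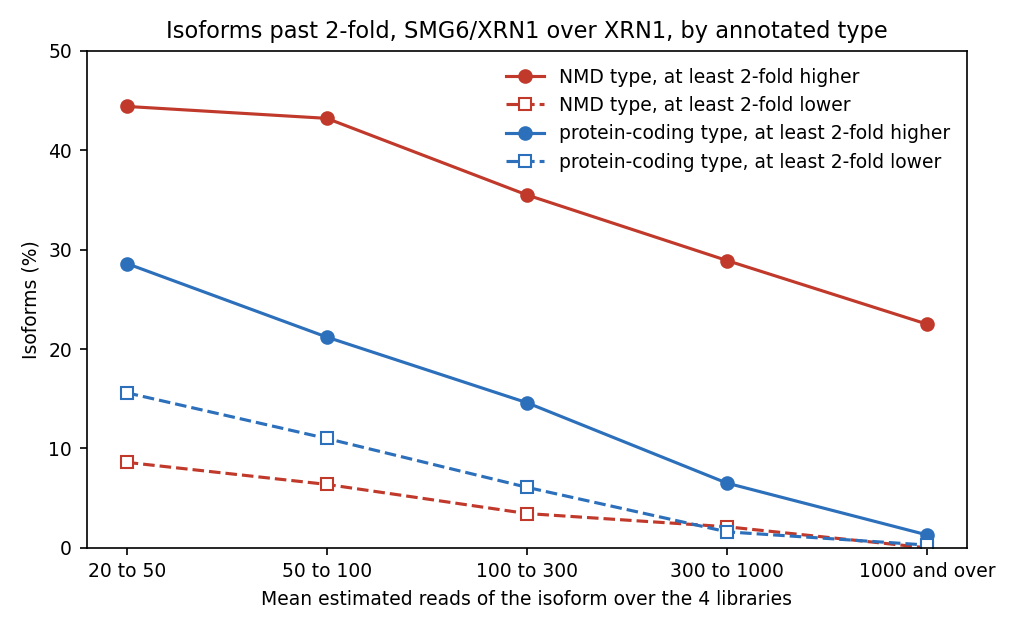
Percentage of isoforms at least 2-fold higher (solid) and at least 2-fold lower (dashed) in SMG6/XRN1 than in XRN1, for NMD-type and protein-coding isoforms, by the isoform's mean estimated reads over the 4 libraries. From 20 to 50 reads to 1000 reads and over, the NMD-type risers go from 44.4% to 22.5% and the protein-coding risers from 28.6% to 1.30%.

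The share of a locus's reads on its NMD-type isoforms does not depend on the total of the locus or of the library. It could be taken at 2288 loci with at least 100 reads in both libraries and at least 20 on NMD-type isoforms. The share was higher in SMG6/XRN1 than in XRN1 at 1605 of them (70.1%, interval 68.2 to 72.0%). Pooled over these loci, NMD-type isoforms held 13.8% of reads in SMG6/XRN1 and 14.8% in UPF1/XRN1, against 11.2% in XRN1 and 9.89% in the control. The median locus had 8.91% in SMG6/XRN1 and 9.56% in UPF1/XRN1, against 6.27% in XRN1 and 4.66% in the control. A gain of at least 10 percentage points over XRN1 was seen at 253 loci and a loss of that size at 95. The same measure for protein-coding isoforms was higher in SMG6/XRN1 at 3368 of 9496 loci (35.5%), and that for retained introns at 1298 of 2332 (55.7%).

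Splicing factor genes of the SR, hnRNP and other regulator lists had 38 loci with such a share, and it was higher in SMG6/XRN1 than in XRN1 at 34. Over all 2288 loci with a share it was higher at 70.1%. At 11 of the 38 it gained at least 10 percentage points and at none did it lose that much, against 253 and 95 of the 2288. The median share of the 38 loci was 19.3% in SMG6/XRN1 and 21.1% in UPF1/XRN1, against 12.4% in XRN1 and 11% in the control. The reads on NMD-type isoforms were at least 2-fold higher at 21 of the 38 loci, those on protein-coding isoforms at 3. Over all loci with a share these counts were 854 of 2288 for NMD-type reads and 388 of 9496 for protein-coding reads. The 2 protein-coding counts are not alike, since the 9496 loci needed at least 20 reads on coding isoforms and the 38 did not. TARDBP, 1 of the 3, had 9 coding reads in SMG6/XRN1 against 3 in XRN1. The 4 with a lower share were HNRNPC, SRRM2, QKI and DDX5, of which the helicase gene DDX5 had 14.1% in SMG6/XRN1 against 18.6% in XRN1.

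**Figure D4:**
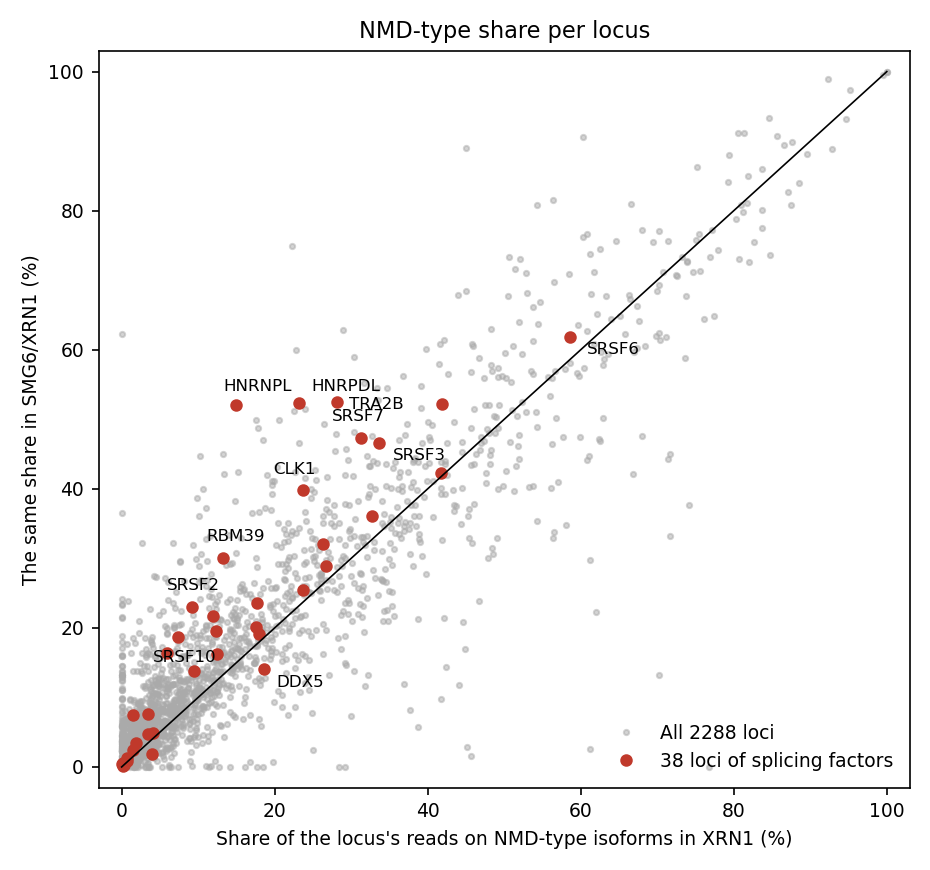
Share of a locus's estimated reads on NMD-type isoforms in SMG6/XRN1 (vertical axis, %) against that in XRN1 (horizontal axis, %), for 2288 loci in grey and 38 loci of splicing factors in red, with the line of equal shares. Of the red points 34 lie above the line, with HNRNPL farthest from it (52.0% against 14.9%), and DDX5 lies below it (14.1% against 18.6%).

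TRA2B, an SR-like protein that promotes inclusion of its own poison exon, had 8435 reads on its NMD-type isoform ENST00000456380 in SMG6/XRN1 and 18515 in UPF1/XRN1, against 3301 in XRN1 and 1106 in the control. Its main coding isoform ENST00000453386 had 6512 reads in SMG6/XRN1 and 6779 in UPF1/XRN1, against 7735 in XRN1 and 7197 in the control. The NMD-type share was 52.4% in SMG6/XRN1 and 64.6% in UPF1/XRN1, against 28.1% in XRN1 and 12.4% in the control. The NMD-type isoform thus differed far more among the 4 libraries than the coding isoform did. As a whole gene TRA2B had a log2 change of 0.57.

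HNRNPL, which binds CA-rich RNA, had 14454 reads on its NMD-type isoform in SMG6/XRN1 and 22568 in UPF1/XRN1, against 3404 in XRN1 and 1409 in the control. Its NMD-type share was 52.0% in SMG6/XRN1 and 66.9% in UPF1/XRN1, against 14.9% in XRN1 and 7.50% in the control. The reads ratio of that isoform, SMG6/XRN1 over XRN1, was 4.46 (4.29 to 4.63), while the gene had a log2 change of 0.06. Its coding reads were 10112 in SMG6/XRN1 against 16022 in XRN1, and 1 coding isoform, ENST00000601449, took 48 of them in SMG6/XRN1 against 4891 in XRN1.

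RBM39, a U2AF-like splicing factor, had 6623 reads on NMD-type isoforms in SMG6/XRN1 and 15486 in UPF1/XRN1, against 1842 in XRN1 and 1316 in the control. The share was 30.1% in SMG6/XRN1 and 49.4% in UPF1/XRN1, against 13.2% in XRN1 and 14.6% in the control. Several isoforms shared in it, among them ENST00000444878 with 2434 reads in SMG6/XRN1 against 345 in XRN1 and ENST00000429968 with 2379 against 868. The gene as a whole had 372 FPKM in SMG6/XRN1 against 196 in XRN1 (0.92).

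Among the SR proteins, SRSF10, which is active when dephosphorylated, had, as its NMD-type share, 18.7% in SMG6/XRN1 and 25.5% in UPF1/XRN1, against 7.35% in XRN1 and 5.19% in the control. SRSF7, which links splicing to mRNA export, had 47.3% in SMG6/XRN1 and 55.1% in UPF1/XRN1, against 31.3% in XRN1 and 16.1% in the control. SRSF3, the smallest SR protein, had 46.5% in SMG6/XRN1 and 54.9% in UPF1/XRN1, against 33.6% in XRN1 and 9.90% in the control. In SRSF3 the coding isoform had 15497 reads in SMG6/XRN1 against 15161 in XRN1, and the NMD-type isoform 13597 against 7700. SRSF2 had, as its NMD-type share, 23.0% in SMG6/XRN1 and 22.5% in UPF1/XRN1, against 9.16% in XRN1 and 1.23% in the control. SRSF6 had 61.8% in SMG6/XRN1 against 58.6% in XRN1, and SRSF1 20.2% against 17.6%, so not all SR genes moved by as much.

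HNRPDL, now named HNRNPDL, had, as its NMD-type share, 52.3% in SMG6/XRN1 and 46.7% in UPF1/XRN1, against 23.1% in XRN1 and 14.1% in the control. Unlike TRA2B and HNRNPL, it stood higher in SMG6/XRN1 than in UPF1/XRN1. The kinase CLK1, which phosphorylates SR proteins, had 39.8% in SMG6/XRN1 and 45.0% in UPF1/XRN1, against 23.7% in XRN1 and 18.4% in the control. LUC7L had 21.7% in SMG6/XRN1 against 12% in XRN1, and HNRNPA2B1 52.3% against 41.8%. MBNL2 had 16.3% in SMG6/XRN1 and 15.2% in UPF1/XRN1, against 5.98% in XRN1 but 23.8% in the control. HNRNPA1 was level at 42.3% in SMG6/XRN1 against 41.7% in XRN1. In SMG6/XRN1, coding isoforms held 485 reads at HNRNPA2B1 and 460 at HNRNPA1, against 48143 and 47439 on NMD-type isoforms. At HNRPDL and SRSF6 coding isoforms had 0 reads in SMG6/XRN1 and in XRN1. At SRSF2 they held 48 of 4291 reads in SMG6/XRN1 and 287 of 3464 in XRN1. At these loci the share does not weigh an NMD-type isoform against a coding one, as it does in TRA2B.

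The annotated stop codons of these NMD-type isoforms are shown because each lies ahead of later exon junctions. Each line gives 12 spliced bases on either side of the stop of the GENCODE 29 transcript, with the stop in capitals and its position in GRCh38.
TRA2B ENST00000456380, chr3:185931772-185931774, minus strand: ctcaggaataagTGAagctgaaatttg
HNRNPL ENST00000388749, chr19:38841624-38841626, minus strand: ctaactcactgtTGAagcgtccaatgg
RBM39 ENST00000429968, chr20:35734215-35734217, minus strand: tacatctccttgTGAttggagtgtggg
SRSF10 ENST00000495785, chr1:23978673-23978675, minus strand: agtgaggggtgtTGAagtttgaaattc
SRSF7 ENST00000425778, chr2:38749319-38749321, minus strand: agtcagtcgcctTGAttcagaatgtca
SRSF3 ENST00000477442, chr6:36599852-36599854, plus strand: ctcaccaccctcTGAatctgcattagc
HNRPDL ENST00000502762, chr4:82426059-82426061, minus strand: taccagccatacTAAaggagaacattg
TAF1D ENST00000526015, chr11:93736161-93736163, minus strand: ggcctgaaaatgTGAcaggatcatgaa
The stop lay in exon 2 of 10 in TRA2B, exon 7 of 14 in HNRNPL, exon 4 of 18 in RBM39, exon 2 of 5 in SRSF10, exon 4 of 9 in SRSF7 and exon 4 of 7 in SRSF3. From the stop to the last junction there were 1015 bases in TRA2B, 842 in HNRNPL, 1420 in RBM39, 490 in SRSF10, 697 in SRSF7, 548 in SRSF3 and 445 in TAF1D. HNRPDL had the shortest distance of these, 127 bases, with the stop in exon 7 of 9. Its stop is also that of all 6 protein-coding transcripts of the gene with an annotated stop, so it does not set that isoform apart from them. The stop of TAF1D is also that of 1 of 2 such coding transcripts and the stop of TRA2B that of 1 of 5. In the other 5 genes no protein-coding transcript ended there.

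**Figure D5:**
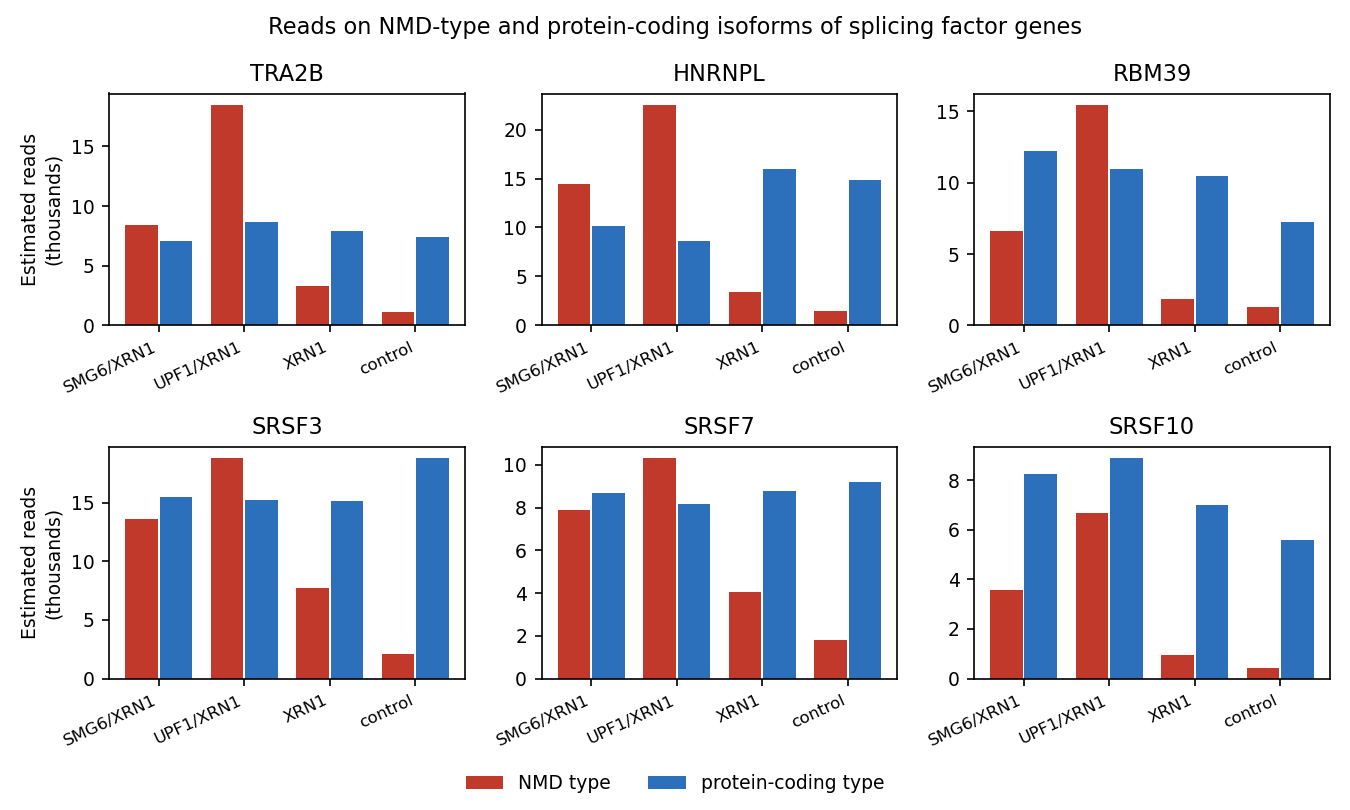
Estimated reads (axis in units of 1000 reads) on NMD-type isoforms (red) and protein-coding isoforms (blue) of 6 splicing factor genes in the 4 libraries, 1 bar per library and class. In TRA2B the red bars are 8435 reads in SMG6/XRN1 and 18515 in UPF1/XRN1, against 3301 in XRN1 and 1106 in the control, while its blue bars are 7033 reads in SMG6/XRN1 against 7906 in XRN1.

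The NMD-type share had a lower median in core spliceosome and cytosolic ribosomal protein genes than in the splicing factor lists. In SMG6/XRN1 the medians were 2.98% and 1.52%, against 19.3%. At some of these genes the share rose by a large factor. SNRPB, a subunit of the Sm ring that is known to hold a regulated poison exon, had, as its NMD-type share, 12.5% in SMG6/XRN1 and 22.7% in UPF1/XRN1, against 4.40% in XRN1 and 2.31% in the control. SNRPA1 had 6.97% in SMG6/XRN1 and 12.9% in UPF1/XRN1, against 0.715% in XRN1 and 0.962% in the control. SNRNP70 had 9.95% in SMG6/XRN1 and 18.5% in UPF1/XRN1, against 3.23% in XRN1 and 1.49% in the control. In all 3 the order was UPF1/XRN1 highest and SMG6/XRN1 next, well above XRN1.

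The 78 measured cytosolic ribosomal protein genes had a median of -0.20 by FPKM and -0.11 by summed signal, where all loci had 0.12 and 0.21. These were the lowest of the lists apart from the 3 measured mitochondrial mRNAs (-0.46 by FPKM). Of the 78 genes 3 lay above 0 by FPKM, and 1 above the median of all loci, with none past 2-fold. RPS12 had the highest value, at 2333 FPKM in SMG6/XRN1 and 2063 in UPF1/XRN1, against 2027 in XRN1 and 1602 in the control (0.20). NMD-type shares could be taken at 25 of these genes, and 18 were higher in SMG6/XRN1, close to the 70.1% over all loci with a share. RPLP0, of the ribosomal stalk, had 12.5% in SMG6/XRN1 and 14% in UPF1/XRN1, against 3.85% in XRN1 and 2.96% in the control. RPS9 had 11.8% in SMG6/XRN1 and 13.0% in UPF1/XRN1, against 6.21% in XRN1 and 2.96% in the control. RPL27A had 2.63% in SMG6/XRN1 against 0.448% in XRN1, while RPS15A was level at 56.0% against 56.3%. As whole genes RPLP0 had a log2 change of -0.15 and RPL27A of -0.23.

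Translation factors (37 genes) had a median of -0.05 by FPKM and 0.03 by summed signal, where all loci had 0.12 and 0.21. EIF4A2 (0.68), itself a snoRNA host, was at the top and EEF1D (-0.48) at the bottom. EEF1B2 was an exception in its NMD-type share, with 2.84% in SMG6/XRN1 and 1.21% in UPF1/XRN1, against 5.98% in XRN1 and 11.1% in the control. There the share was lowest in both co-depletions.

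Among 38 measured genes listed as known NMD targets, 3 rose (1.36% of all loci did). All 3 are the snoRNA hosts ZFAS1, GAS5 and SNHG12. The median was 0.31, 33 lay above 0 and 27 above the median of all loci, with RPL12 lowest (-0.34). The NMD-type share was higher in SMG6/XRN1 at 10 of 12 such genes, where 70.1% of all loci with a share had it higher. BAG1, a co-chaperone of HSP70, had 40.6% in SMG6/XRN1 and 34.4% in UPF1/XRN1, against 19.6% in XRN1 and 12.2% in the control. TBL2 had 56.2% in SMG6/XRN1 against 36.7% in XRN1 and 49.0% in the control, but its coding isoforms rounded to 0 reads in SMG6/XRN1 and in XRN1. UPP1, on 55 and 65 NMD-type reads, had 13.9% in SMG6/XRN1 against 30.3% in XRN1.

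Across all loci with at least 1000 reads on NMD-type isoforms over both libraries, 270 of 389 had a higher share in SMG6/XRN1, 71 gained at least 10 percentage points and 14 lost that much. The largest gains, chosen after their values were seen, were in XPA, a nucleotide excision repair factor, with 59.9% in SMG6/XRN1 and 56.4% in UPF1/XRN1, against 22.8% in XRN1 and 6.57% in the control, and in HNRNPL. IKBKB, the kinase of the NF-kappaB inhibitor, had 62.9% in SMG6/XRN1 against 29% in XRN1, but 51.8% in the control. UFSP2 had 42.1% in SMG6/XRN1 and 43.7% in UPF1/XRN1, against 13.3% in XRN1 and 9.61% in the control. The largest losses were in CASP2 (11.8% in SMG6/XRN1 against 44.1% in XRN1) and the splicing factor CRNKL1. CRNKL1 had 2 NMD-type reads in SMG6/XRN1 and 139 in UPF1/XRN1, against 1158 in XRN1 and 1603 in the control. Its coding isoforms had 0 reads in each library.

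Among genes that respond to ERK signalling, a pair of ETS transcription factor genes rose and the list as a whole lay near the median of all loci. ETV5, of the PEA3 family, had 13.0 FPKM in SMG6/XRN1 and 6.31 in UPF1/XRN1, against 2.54 in XRN1 and 3.12 in the control. Its relative ETV4 had 10.7 FPKM in SMG6/XRN1 and 4.69 in UPF1/XRN1, against 4.03 in XRN1 and 2.75 in the control, and ETV1 had 4.55 and 3.01, against 1.92 and 2.11. ETV5 (1.98) and ETV4 (1.22) rose, ETV1 (0.93) did not pass, and in all 3 genes SMG6/XRN1 was the highest of the 4 libraries. Of 15 measured ERK-responsive genes ETV5 and ETV4 were the 2 that rose, where 1.36% of all loci did. The median was 0.16 against 0.12 over all loci, and 8 lay above the median of all loci, with DUSP4 lowest (0.07).

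Of 24 immediate-early genes, EGR1 and FOSB rose and MYC fell, where 1.36% of all loci rose and 0.173% fell. The median of the list was 0.22. EGR1 had 13.3 FPKM in SMG6/XRN1 and 9.04 in UPF1/XRN1, against 4.42 in XRN1 and 5.23 in the control (1.40). FOSB had 3.47 FPKM in SMG6/XRN1 against 0.903 in XRN1 (1.23), and FOS 4.55 against 1.84 (0.97). MYC had 29.5 FPKM in SMG6/XRN1 and 21.8 in UPF1/XRN1, against 61.6 in XRN1 and 44.1 in the control. Its log2 change was -1.04 by FPKM and -0.97 by summed signal, so its call depends on the table.

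None of 25 measured p53 targets passed 2-fold. The median was 0.40, 24 lay above 0 and 22 above the median of all loci. The death receptor FAS had 16.7 FPKM in SMG6/XRN1 and 16 in UPF1/XRN1, against 8.91 in XRN1 and 8.41 in the control (0.84), BAX had 15.3 in SMG6/XRN1 against 9.02 in XRN1 (0.70) and RRM2B was lowest (-0.09). Of 28 ATF4 targets none passed, the median was 0.06, and NUPR1 was highest (9.56 FPKM in SMG6/XRN1 against 4.32 in XRN1, 0.99) and VLDLR lowest (-0.32). Of 6 measured nuclear-retained RNAs only NEAT1, the scaffold of paraspeckles, rose (1.24), where 1.36% of all loci did. NEAT1 had 11.3 FPKM in SMG6/XRN1 and 19 in UPF1/XRN1, against 4.2 in XRN1 and 3.62 in the control. OIP5-AS1 was lowest (-0.29).

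Outside the lists, 59 loci rose by both tables with a mean of at least 5 FPKM and 50 reads in both libraries, and the 14 largest are given here. H3F3AP4, a processed pseudogene of histone H3.3, had 324 FPKM in SMG6/XRN1 and 48.1 in UPF1/XRN1, against 65.9 in XRN1 and 67.2 in the control (2.28). It alone among the 14 was lower in UPF1/XRN1 than in XRN1. Its reads were 10681 in SMG6/XRN1 against 2144 in XRN1, and how reads were split between this copy and its parent gene was not tested. APOBEC3B, a DNA cytidine deaminase, had 18.1 FPKM in SMG6/XRN1 and 8.87 in UPF1/XRN1, against 5.02 in XRN1 and 8.23 in the control (1.66). The chemokine gene IL8 had 9.04 FPKM in SMG6/XRN1 and 7.49 in UPF1/XRN1, against 2.39 in XRN1 and 11.4 in the control (1.57), so XRN1 stood lowest and the control highest.

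In the other 11 XRN1 stood above the control, SMG6/XRN1 above XRN1, and UPF1/XRN1 above XRN1 too. CLHC1, which carries a clathrin heavy chain linker domain, had 25.7 FPKM in SMG6/XRN1 and 27.5 in UPF1/XRN1, against 7.14 in XRN1 and 3.22 in the control (1.72). SEPT7P2, a septin pseudogene, had 72.4 FPKM in SMG6/XRN1 and 109.6 in UPF1/XRN1, against 22.9 in XRN1 and 8.18 in the control (1.62). RIMKLB, a dipeptide synthase, had 47.2 FPKM in SMG6/XRN1 against 14.8 in XRN1 (1.61), and AHSA2, related to an HSP90 co-chaperone, 15.9 against 4.68 (1.58). ARHGAP11B, the human-specific partial copy of ARHGAP11A, had 21.9 FPKM in SMG6/XRN1 and 26.5 in UPF1/XRN1, against 6.98 in XRN1 and 2.12 in the control (1.52). The remaining 6 were TBC1D3C (1.73), WHAMMP3 (1.59), CUZD1 (1.54) and the clone-named genes RP11-313P13.3 (1.95), RP11-15J10.1 (1.55) and RP11-33B1.1 (1.47). TBC1D3C, WHAMMP3, SEPT7P2 and ARHGAP11B have near-identical copies, and how reads were split among the copies was not tested. At TBC1D3C the symbol covers 39.2% of the reads of the locus, and at CUZD1 it covers 60.5%.

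Only 4 loci met the same floors among the falls, and 2 of them stood high in XRN1 alone. AC004448.5 had 31.2 FPKM in SMG6/XRN1 and 23.0 in UPF1/XRN1, against 229.5 in XRN1 and 34.6 in the control (-2.84). FAM72C, of a family of near-identical copies, had 2.44 FPKM in SMG6/XRN1 and 2.5 in UPF1/XRN1, against 22.2 in XRN1 and 1.83 in the control (-2.76). RPL9P9, a ribosomal protein pseudogene, had 9.35 FPKM in SMG6/XRN1 and 2.79 in UPF1/XRN1, against 22.9 in XRN1 and 3.77 in the control (-1.20). RP5-857K21.4 had 2.33 FPKM in SMG6/XRN1 and 1.89 in UPF1/XRN1, against 13.7 in XRN1 and 14.6 in the control (-2.14), so there it was XRN1 and the control that stood together.

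At a few loci the 2 deposited tables part. CHD8, a chromatin remodeller, had 459 FPKM in SMG6/XRN1 against 11 in XRN1 (5.26), but 2585 estimated reads against 2161, a log2 change of 0.33 by summed signal. The same held for KBTBD4 (2.09 by FPKM and 0.28 by signal), MECOM (2.04 and 0.54) and the pluripotency factor SOX2 (1.61 and 0.06). CAB39 was -2.03 by FPKM and 0.24 by signal, and TAP2 -0.80 and 0.12. CHD8 is counted among the rises above, and on the second table it is not past 2-fold.

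The isoform with the most reads changed identity between the libraries at 1344 of 10279 loci with at least 100 reads and 2 isoforms (13.1%). A protein-coding main isoform in XRN1 gave way to an NMD-type one in SMG6/XRN1 at 68 loci, and the reverse was seen at 34. NMD-type isoforms were the main isoform at 281 loci in SMG6/XRN1 and 239 in XRN1.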

How the data were processed

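Cytoplasmic poly(A)+ RNA of siRNA-treated HEK293 Flp-In T-Rex cells was sequenced by the authors from ScriptSeq v2 libraries, per the labels' protocols. The submitters' processing notes name CASAVA 1.8.2, Bowtie 0.12.7, TopHat2 2.0.6, Cufflinks 2.0.2 and the genome hg19, without role or order. The gene table was deposited as FPKM per assembled locus. The isoform table was deposited as a spike-in normalised signal per assembled isoform. The sources used here name neither the spike-in, its factor nor the use of strand, so overlapping, antisense and near-identical genes are uncertain. Other deposited columns hold the authors' identifiers, class codes and TRUE or FALSE marks.

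Here loci were joined through the deposited identifiers and compared with Python 3.11.15, pandas 2.3.3, NumPy 2.4.6 and SciPy 1.17.1. Changes are log2((a + 1)/(b + 1)) with a call at 2-fold, which understates the change of low genes. For isoforms the added 1 is under 1 read. Signals were divided by the step per library (4.25 in SMG6/XRN1, 3.72 in UPF1/XRN1, 4.05 in XRN1 and 3.85 in the control), and 86.7 to 89.1% of low loci came out whole within 0.01. Ratios of reads keep the authors' spike-in scale and carry exact conditional binomial intervals, and shares carry exact Clopper-Pearson intervals. Where several loci bear a symbol, the locus with the highest mean stands for it. Of the loci compared, 15 were listed at 0 in XRN1, 239 had no symbol, and at 406 the symbol covers under 80% of the reads. Transcript types and stop codons come from GENCODE release 29 (GRCh38), matched by transcript identifier without version, so a model may differ from the one the authors used. Coordinates are those of GRCh38.

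The 32 gene lists (805 entries), the members and the rule for named genes were chosen with earlier results of these data known. The rule names every measured non-coding snoRNA host and NMD factor, list members past 2-fold and at the extremes, the 14 largest rises and up to 10 largest falls outside the lists by both tables, the 6 loci at which the tables part most, the 8 largest rises and falls among isoforms with a mean of at least 100 reads, and the 8 largest gains in isoform share. XRN1, SMG6, UPF1 and HBB are always named. Genes named within lists for their NMD-type share were picked after those shares were seen. The comparison of transcript types and the genes named for their NMD-type share outside the lists were chosen after the isoform values were seen. The computations were checked on simulated data. No p-value was computed, since each group had 1 library. A few items that the rule names are not reported here.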

Additional observations from a re-analysis of the deposited data

How the results depend on the processing

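No paired analysis was possible because each group had 1 library. The counts of loci at least 2-fold higher and lower (166 and 21) were 356 and 40 with 0.1 added in place of 1 FPKM, 102 and 11 with a mean of at least 5 FPKM, and 424 (3.49%) and 32 (0.263%) by isoform signal summed per locus. By summed signal 27 list members rose, against 17 by FPKM. CAB39 turned to 0.24 by summed signal, where CHD8 (0.33), KBTBD4 (0.28), SOX2 (0.06), MECOM (0.54), MYC (-0.97) and MT-ND6 (-0.92) were no longer past 2-fold. With a mean of at least 10 reads 4902 isoforms fell, and with at least 100 reads 3344 rose and 822 fell. The share of NMD-type isoforms that rose was 31.7% with at least 100 reads, 35.5% with about 5 reads added and 29.7% on centring, and that of protein-coding isoforms 7.76%, 12.7% and 10.2%, with 16.4% at 10 reads. NMD-type isoforms thus rose more often than protein-coding ones under each of these settings. Main isoforms switched at 11.3% of loci with at least 300 reads. The percentage of loci with a higher NMD-type share was 71.5% with at least 300 reads of the locus and 69% with at least 100 on NMD-type isoforms. On centring, the list medians of protein-coding snoRNA hosts (-0.05), hnRNP proteins (-0.06) and others that lay between 0 and 0.12 turned below 0. With 1 library a side, differences between cultures cannot be told apart from those between conditions, and isoform reads rest on the authors' split of shared reads.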

Other observations

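Gene groups not described above stayed within 2-fold between SMG6/XRN1 and XRN1, except for the mitochondrial mRNAs. Polyamine genes (9 measured, median 0.38) held SAT1, the spermidine acetyltransferase, at 2029 FPKM in SMG6/XRN1 and 1783 in UPF1/XRN1, against 1403 in XRN1 and 852 in the control, and SRM lowest (-0.35). Heat shock genes (18, median 0.09) ran from HSPD1 (-0.37) to HSPA1B (0.96), where the symbol covers 51.4% of the reads. Replication histones (18, -0.15) ran from HIST2H4B (-0.90) to HIST1H2AE (0.83, on 70 reads in SMG6/XRN1 and 33 in XRN1). Respiratory chain genes of the nucleus (44, -0.13) ran from NDUFS7 (-0.44) to SDHD (0.23). The 3 measured mitochondrial mRNAs did not move together. The locus labelled MT-ND5 had 2180 FPKM in SMG6/XRN1 and 1317 in UPF1/XRN1 and was listed at 0 in XRN1 and in the control, MT-ND6 had 1191 in SMG6/XRN1 against 2385 in XRN1 (-1.0), past 2-fold, and MT-CYB had 697 against 959 (-0.46). Cholesterol genes (19, -0.10, and 0.01 by summed signal, where all loci had 0.21) ran from SQLE (-0.42) to SREBF2 (0.31). Interferon genes (19, 0.12) ran from IFI27 (-0.50) to ISG20 (0.72), selenoprotein genes (17, 0.03) from SEPP1 (-0.23) to SEPW1 (0.62), tRNA synthetases (19, 0.02) from QARS (-0.20) to CARS (0.32), proteasome genes (30, 0.13) from PSMD7 (-0.14) to PSMD12 (0.44), mitotic genes (19, 0.04) from MKI67 (-0.46) to BUB1B (0.45) and reference genes (14, 0.01) from SDHA (-0.27) to GUSB (0.55).

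The split of reads among isoforms was unsteady at some loci. Of 25161 isoforms with a mean of at least 100 reads, 203 were listed at 0 in SMG6/XRN1 and 286 in XRN1. The isoform ENST00000476419 of PTBP2, a neuronal splicing repressor, had 3558 reads in SMG6/XRN1 and 3801 in UPF1/XRN1, and was listed at 0 in XRN1 and in the control. The NMD-type isoform ENST00000550053 of KIAA1033 had 939 reads in SMG6/XRN1 and 1449 in UPF1/XRN1, and was also listed at 0 in XRN1 and in the control. The isoform ENST00000423132 of AP1G1 was listed at 0 in SMG6/XRN1 and had 925 reads in UPF1/XRN1, against 1094 in XRN1 and 648 in the control.

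Other isoforms listed at 0 in XRN1 included 1 overlapping MT-ND5 (695977 reads in SMG6/XRN1 and 478472 in UPF1/XRN1, and 0 in the control), an assembled isoform of CPNE1 (1224, 78 and 22), ENST00000396212 of CCP110 (1000, 1042 and 0), ENST00000370198 of PTBP2 (1139, 977 and 714) and an assembled isoform of TBC1D3 (768, 1203 and 91), with reads in the same order of libraries. Several isoforms listed at 0 in SMG6/XRN1 had reads in XRN1 of 1415 for SRSF6, 1118 for NVL, 800 for DMTF1, 786 for MATR3, 779 for TRIP12 and 1113 for ENST00000496549 of CRNKL1. Of these, the isoforms of NVL and DMTF1 were also listed at 0 in UPF1/XRN1.

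The largest gains in the share of 1 isoform include loci whose totals were close. The coding isoform ENST00000305364 of TRIM35 held 91.2% of its locus in SMG6/XRN1 against 5.06% in XRN1, while the locus had 786 reads against 715. For TPR, a nuclear pore protein, the isoform ENST00000367478 held 85.7% in SMG6/XRN1 against 16% in XRN1. The other gains were in NRP1 (83.8% in SMG6/XRN1 against 1.65% in XRN1), OTUD7A (84.5% against 2.95%), FOXP4 (77.4% against 0.0333%), TRIM32 (76.5% against 0.106%), SETD1A (75.6% against 0.00422%) and CBFA2T2 (70.0% against 0%).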
